A study of Mus musculus with 21 samples.

Results

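Penk, Drd1, Drd2, Adora2a, Ppp1r1b, Rgs9 and Tac1 mark the medium spiny neurons of the striatum, and they were measured here in RNA from dissected mouse hippocampus. The 7 genes, of 55487 in the counts table, were chosen by their levels in these libraries, which stood far above the rest in a few of them, and above all in the library MS5. Their levels across libraries are therefore given as a description and carry no test. Poly-A RNA was sequenced with 1 library per mouse, from male wild type C57BL/6 mice of 10 weeks. In the maternal separation group (MS, n = 9) whole nests were taken from the dam for 4 hours daily from postnatal day 10 to 17, and part of the nesting material was removed from the home cage during that period. The standard rearing group (SR, n = 12) stayed with the dam. MS here is therefore separation combined with scarce nesting material, whole nests were assigned to a group, and littermates shared cages after weaning. The labels name no nest. The animal numbers form 7 sets of 3 consecutive numbers, each of 1 group, in 2 separate ranges. Libraries are called MS1 to MS9 and SR1 to SR12.

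Medium spiny neurons are the GABAergic output neurons of the striatum, and they exist as a direct and an indirect pathway type. Direct pathway neurons carry the dopamine D1 receptor and release substance P and dynorphin, while indirect pathway neurons carry the dopamine D2 and adenosine 2A receptors and release enkephalin. D1 and adenosine 2A receptors raise cyclic AMP, the D2 receptor lowers it, and DARPP-32 and RGS9 act downstream of these receptors in both types. The hippocampus holds no medium spiny neurons, but several of these genes are known from scattered hippocampal neurons, such as Drd2 in hilar mossy cells and Penk and Tac1 in interneurons.

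Levels are given in CPM, the count of a gene scaled to a library of standard size after normalization. The libraries held 17276810 to 30449055 counts in all (median 21801385), and no pair of them was identical. In a principal component analysis of the 500 most variable genes, MS5 scored 26.0 on the first component, and the scores of the other 20 libraries were -10.2 to 9.72. MS5 was labelled hippocampus like the rest, but several genes that define dentate gyrus granule cells were near 0 in it. Dsp, a desmosome gene of these cells, had 0.696 CPM in MS5 and 53.7 to 139 CPM in the others. MS5 was left out of the comparison of MS with SR, as the library farthest from the rest, and values with it are given beside.

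The genes lie on 6 chromosomes (GRCm38, annotation of GENCODE M21). Penk (ENSMUSG00000045573) is at chr4:4133531-4138819 on the minus strand and Tac1 (ENSMUSG00000061762) at chr6:7554879-7565834 on the plus strand. Drd1 (ENSMUSG00000021478) is at chr13:54051183-54055705 on the minus strand, Drd2 (ENSMUSG00000032259) at chr9:49340627-49408177 on the plus strand and Adora2a (ENSMUSG00000020178) at chr10:75316877-75334784 on the plus strand. Ppp1r1b (ENSMUSG00000061718) is at chr11:98348404-98357796 on the plus strand and Rgs9 (ENSMUSG00000020599) at chr11:109225355-109298129 on the minus strand.

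RefSeq held a promoter entry for 4 of the 7 genes, and these are shown because the genes were high in the same libraries. Of the 250 bases before the start site, those from the far end up to the first annotated exon are printed. They run 5′ to 3′ on the gene's strand (GRCm38.p6). Capitals mark the GC box GGGCGG, found on either strand, and the CRE-like letters TGCGTCA, a near form of the cyclic AMP response element. The stretch of Tac1 ends 183 bases before the start and that of Drd1 48 bases before it, so nearer bases were not searched there.
Tac1, chr6:7554811-7554878, plus strand: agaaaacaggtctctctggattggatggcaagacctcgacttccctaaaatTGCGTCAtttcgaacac
Drd2, chr9:49340153-49340402, plus strand: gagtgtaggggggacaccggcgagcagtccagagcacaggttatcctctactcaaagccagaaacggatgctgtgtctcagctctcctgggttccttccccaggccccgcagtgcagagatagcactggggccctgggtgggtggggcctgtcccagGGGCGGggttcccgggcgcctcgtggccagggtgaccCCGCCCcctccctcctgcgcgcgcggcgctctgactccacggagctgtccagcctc
Rgs9, chr11:109298182-109298431, minus strand: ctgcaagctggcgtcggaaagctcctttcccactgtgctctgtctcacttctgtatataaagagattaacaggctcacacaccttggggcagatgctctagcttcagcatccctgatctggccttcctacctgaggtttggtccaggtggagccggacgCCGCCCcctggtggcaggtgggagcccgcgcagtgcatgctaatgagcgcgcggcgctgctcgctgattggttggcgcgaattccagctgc
Drd1, chr13:54055706-54055908, minus strand: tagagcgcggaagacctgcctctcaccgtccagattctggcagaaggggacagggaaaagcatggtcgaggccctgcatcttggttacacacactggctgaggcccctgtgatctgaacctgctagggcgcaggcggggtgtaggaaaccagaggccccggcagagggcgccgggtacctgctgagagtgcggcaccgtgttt
The stretch of Tac1 held 1 CRE-like match, which 0.255% of 27025 mouse promoters hold in the same window. Drd2 held 2 GC boxes and Rgs9 held 1, and 32.9% of promoters hold a GC box in that window. The stretch of Drd1 held neither motif, where 25.2% of promoters hold a GC box and 1.11% the CRE-like letters. The windows of the other promoters were not cut at exons. These matches describe letters and were not tied to the levels.

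The 7 genes were carried by the same libraries. MS5 was highest, MS1 next and SR8 after it for 7 of 7 genes. The place below these went to SR7 for 5 genes, to MS9 for Drd2 and to MS4 for Ppp1r1b. MS5, MS1 and SR8 came from 3 different sets of animal numbers, all in the lower range, and they include the library with the highest total (MS5) and the one with the lowest (MS1).

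Penk encodes proenkephalin, the precursor of the enkephalins. Its level was 420.2 CPM in MS5, 131 CPM in MS1 and 81.6 CPM in SR8. The other MS libraries had 13.7 to 23.4 CPM, and the other SR libraries 13.9 (SR9) to 24.5 CPM (SR7). Beyond the 3 high libraries the groups overlapped over nearly their whole range, with a median of 17.4 CPM in 8 MS libraries without MS5 and of 17.2 CPM in 12 SR libraries.

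Tac1 encodes the precursor of substance P and neurokinin A. It had 54.3 CPM in MS5, 19.5 CPM in MS1 and 12.4 CPM in SR8, and between 2.84 (SR3) and 7.02 CPM (SR7) in the rest. The median was 4.81 CPM in 8 MS and 5.10 CPM in 12 SR libraries, and the groups overlapped.

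Drd1, the D1 receptor, had 88.7 CPM in MS5, 28.5 CPM in MS1, 17.9 CPM in SR8 and 10.3 CPM in SR7. In the remaining libraries it ranged from 2.33 (MS8) to 6.16 CPM (MS4). The medians were 4.10 CPM in 8 MS and 3.91 CPM in 12 SR libraries, so SR7 stood out for this receptor more than for the peptide precursors.

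Drd2, the D2 receptor, had 90.0 CPM in MS5, 34.8 CPM in MS1 and 19.9 CPM in SR8. MS9 followed with 5.67 CPM and SR7 with 5.27 CPM, and the lowest library was SR3 with 1.73 CPM. The medians were 2.80 CPM in 8 MS and 2.94 CPM in 12 SR libraries, and the groups overlapped. Drd2 was the only gene of the 7 for which MS9 ranked above SR7 and MS4.

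Adora2a, the adenosine 2A receptor, had the widest range. It had 123 CPM in MS5, 35.4 CPM in MS1, 21.02 CPM in SR8 and 6.59 CPM in SR7. The remaining libraries had 1.37 (MS6) to 3.15 CPM (MS4), with medians of 2.24 CPM in 8 MS and 2.02 CPM in 12 SR libraries. MS5 was thus 57.0 times the median of the other 20 libraries, against 11.0 times for Tac1 and 11.1 times for Ppp1r1b.

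Ppp1r1b encodes DARPP-32, which inhibits protein phosphatase 1 once protein kinase A has phosphorylated it. It had 674 CPM in MS5, 243 CPM in MS1 and 154 CPM in SR8. The rest lay between 42.0 (MS8) and 82.5 CPM (MS4), and SR7 had 60.1 CPM, below the median of 60.9 CPM over 20 libraries. The median was 75.2 CPM in 8 MS and 55.2 CPM in 12 SR libraries, and the groups overlapped.

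Rgs9 encodes a protein that speeds the shut-off of G proteins coupled to dopamine receptors. It had 241 CPM in MS5, 77.6 CPM in MS1, 56.1 CPM in SR8 and 26.2 CPM in SR7. The other libraries lay between 11.5 (MS7) and 17.3 CPM (SR2), the lowest ratio of highest to lowest (1.51) of the 7 genes. The medians were 14.6 CPM in 8 MS and 15.2 CPM in 12 SR libraries, and the groups overlapped.

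**Figure D1:**
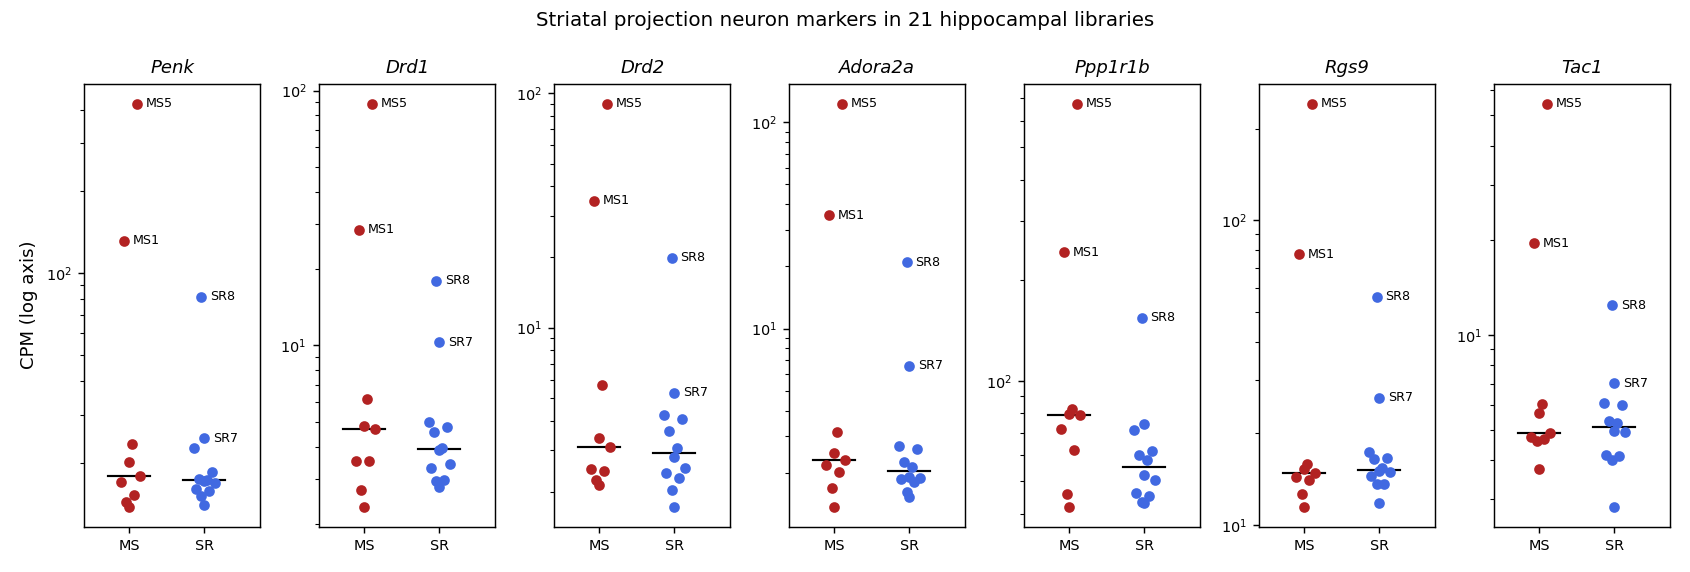
Level of each of the 7 genes in CPM (log axis, a separate scale per gene) in 9 MS (red) and 12 SR (blue) libraries, with 1 point per library and a line at the group median. MS5, MS1 and SR8 are the 3 highest points for every gene, and the other libraries of both groups overlap.

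The mice with consecutive animal numbers did not carry the genes to the same degree. MS4 and MS6, of the set of MS5, had 23.4 and 13.7 CPM of Penk, and MS2 and MS3, of the set of MS1, had 17.0 and 15.2 CPM. SR7 and SR11, of the set of SR8, had 24.5 and 16.9 CPM. For Adora2a, SR7 and SR11 had 6.59 and 2.14 CPM against 21.02 CPM in SR8. The high levels were therefore those of single libraries within their sets, with SR7 as a lesser case beside SR8.

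Set against the amount in MS5, the genes stood out in MS1 and SR8 to nearly the same degree. For each gene the level above the median of 20 libraries was divided by the same quantity in MS5. In MS1 this excess was 27.4% to 36.6% of that in MS5 (median 29.0%), and in SR8 it was 15.2% to 19.5% (median 16.0%). Drd2 gave the highest share in both libraries, 36.6% in MS1 and 19.5% in SR8, and for the other 6 genes the share in MS1 lay between 27.4% (Adora2a) and 29.7% (Ppp1r1b). In MS1 the direct pathway markers Drd1 and Tac1 had 29.0% and 29.6%, between the indirect pathway markers Adora2a and Penk (27.4% and 28.3%) and Drd2 (36.6%). In SR8 they had 16.5% and 15.2%, against 15.6%, 16.0% and 19.5%. In SR7 the excess was 7.52% for Drd1, 4.97% for Rgs9, 4.21% for Tac1, 3.66% for Adora2a, 2.68% for Drd2, 1.81% for Penk and -0.140% for Ppp1r1b, so that here both direct pathway markers lay above the 3 indirect ones. MS4 had 0.191% to 3.52%. These shares are ratios of single libraries, with no replicate.

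**Figure D2:**
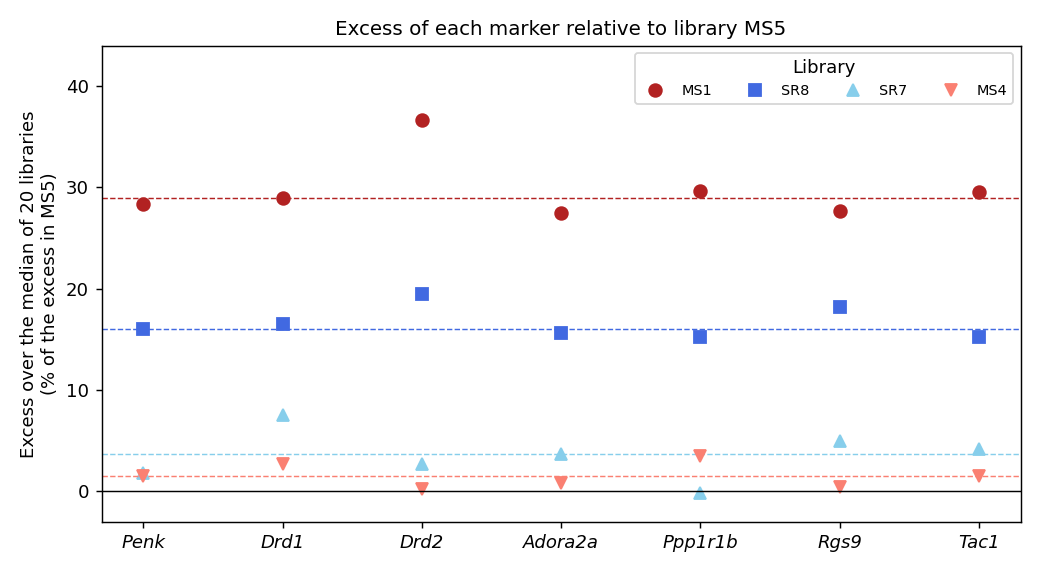
Excess of each gene over the median of 20 libraries, as a percent of the excess in MS5, for MS1, SR8, SR7 and MS4, with dashed lines at the median of the 7 genes. The points of MS1 lie between 27.4% and 36.6% and those of SR8 between 15.2% and 19.5%, so that the ratio to MS5 is much alike across genes.

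Other genes of the striatum were high in the same libraries. Of 24 measured genes on a list of further striatal genes, 23 were at least 2-fold above the median of 20 libraries in MS5, 14 in MS1 and 8 in SR8, beside 7 of 7 of the named markers in each of these 3 libraries. Over all 18146 genes tested, 3.79% were that high in MS5, 2.11% in MS1 and 1.35% in SR8. In SR7, 2 of the 7 markers and 0.568% of all genes were that high. The striatal lists were drawn up with these libraries' values known, so their counts are a description. Of the 24, 22 were among the 18146 genes tested, which were filtered without MS5. Isl1 and Drd3 were not. Gpr6, an orphan receptor of the indirect pathway, had 30.6 CPM in MS5, 10.3 CPM in MS1 and 5.26 CPM in SR8. Sh3rf2 had 23.8, 8.06 and 3.91 CPM in these libraries, and the median of 20 libraries was 0.478 CPM. Isl1, a transcription factor of developing striatal neurons, had 4.91, 5.02 and 0.505 CPM with a median of 0.178 CPM, and was thus as high in MS1 as in MS5. The exception was Bcl11b, a transcription factor of striatal and hippocampal neurons alike, with 165 CPM in MS5 and a median of 173 CPM. The excess was taken for the 23 further striatal genes that were more than 2-fold above the median in MS5, and so chosen on MS5. Its median was 28.1% of that in MS5 in MS1, 14.7% in SR8 and 2.64% in SR7. For the 7 markers, also chosen on MS5, it was 29.0%, 16.0% and 3.66%. The single genes varied more than the markers, from 20.4% to 102.5% in MS1 and from -15.7% to 44.1% in SR8.

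Genes of striatal cholinergic interneurons, which share the striatum with medium spiny neurons, were also high there. Their summed level over 4 genes was 32.5 CPM in MS5, 17.6 CPM in MS1, 5.38 CPM in SR8 and 0.5851 to 1.73 CPM in the other 18 libraries. Chat, the acetylcholine synthesis enzyme, had 11.3 CPM in MS5, 5.41 CPM in MS1 and 1.60 CPM in SR8. Slc18a3, the vesicular acetylcholine transporter, had 4.71, 2.65 and 1.30 CPM, and Slc5a7, the choline transporter, had 14.0, 8.67 and 2.23 CPM. MS1 held more of the cholinergic genes relative to MS5 than of the 7 markers, with 46.7% of the excess for Chat against 27.4% to 36.6%. Cholinergic neurons are found in the septum as well, and the septal genes summed to 218 CPM in MS1, above all other libraries. Of the 6 septal genes, 3 were at least 2-fold above the median of 20 libraries in MS1, where 2.11% of all genes were. The part of septal cells in the cholinergic levels was not tested.

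Genes of hippocampal and neighbouring cells moved with the markers to different degrees in the 3 libraries. The summed level of 10 dentate granule cell genes was 148 CPM in MS5, 419 CPM in MS1 and 399 CPM in SR8, against 392 to 777 CPM (median 545 CPM) in the other 18 libraries. In MS5, 7 of the 10 were at least 2-fold below the median of 20 libraries, where 4.66% of all genes were that low. C1ql2, a synaptic protein of mossy fibres, had 1.86 CPM, and Lct had 1.46 CPM. In MS1, where 1.14% of all genes were that low, and in SR8, where 1.96% were, 0 and 1 of the 10 were that low. Of 11 genes of CA pyramidal cells 4 were that low in MS5. Fibcd1, a gene of CA1 neurons, had 10.7 CPM against a median of 159 CPM, Iyd had 0.033 against 3.70 CPM and Spink8 had 1.09 against 6.23 CPM. The summed level of the CA pyramidal genes was 366 CPM in MS5, 556 CPM in MS1, 449 CPM in SR8 and 473 to 752 CPM in the rest. Of 4 hilar mossy cell genes, 2 were that low in MS5, with 0.862 CPM of Csf2rb2 and 7.16 CPM of Calb2. The sum of the 4 was 15.7 CPM in MS5, 17.3 CPM in SR8, 60.0 CPM in MS1 and 25.9 to 55.9 CPM in the rest. In MS1 Calb2 alone gave 49.1 CPM of this sum. Csf2rb2, Nmb and Calcrl were 0.632, 0.848 and 1.05 times the median of 20 libraries there. MS1 and SR8 thus carried the striatal markers beside granule cell genes at the low end of the range of the other 18 libraries, and MS5 carried them with granule cell genes below the range of all others. In bulk RNA a lower number of cells of a type and less RNA per cell cannot be told apart.

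The 12 genes of GABAergic neurons, which striatum and hippocampus share, summed to 925 CPM in MS5, 834 CPM in MS1, 779 CPM in SR8 and 661 to 833 CPM in the rest, with the highest ratios in MS5 for Dlx6, Dlx5 and Dlx2 (3.43, 2.11 and 1.90 times the median). The 6 neocortical genes summed to 366 CPM in MS5, 353 CPM in SR8, 184 CPM in MS1 and 150 to 370 CPM in the rest, where MS4 was highest. At least 2-fold above the median of 20 libraries were 3 of the 6 in MS5, 2 in SR8 and 1 in MS1. Over all genes 3.79%, 1.35% and 2.11% were that high. Lamp5, a neocortical gene, had 102.5 CPM in MS5, 100.8 CPM in SR8 and 34.5 CPM in MS1, against a median of 32.2 CPM. Fezf2, also on this list, was not raised, with 35.0 CPM in MS5, 36.2 CPM in SR8 and a median of 37.7 CPM. By their sum, SR8 and MS5 had high neocortical genes together with the striatal markers. The sum in MS1 was near the median of the other 18 libraries (176 CPM). The 6 choroid plexus genes summed to 13.5 CPM in MS5, the lowest of all libraries, to 3396 CPM in MS1 and to 812 CPM in SR8. The part of these tissues in the marker levels was not tested.

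**Figure D3:**
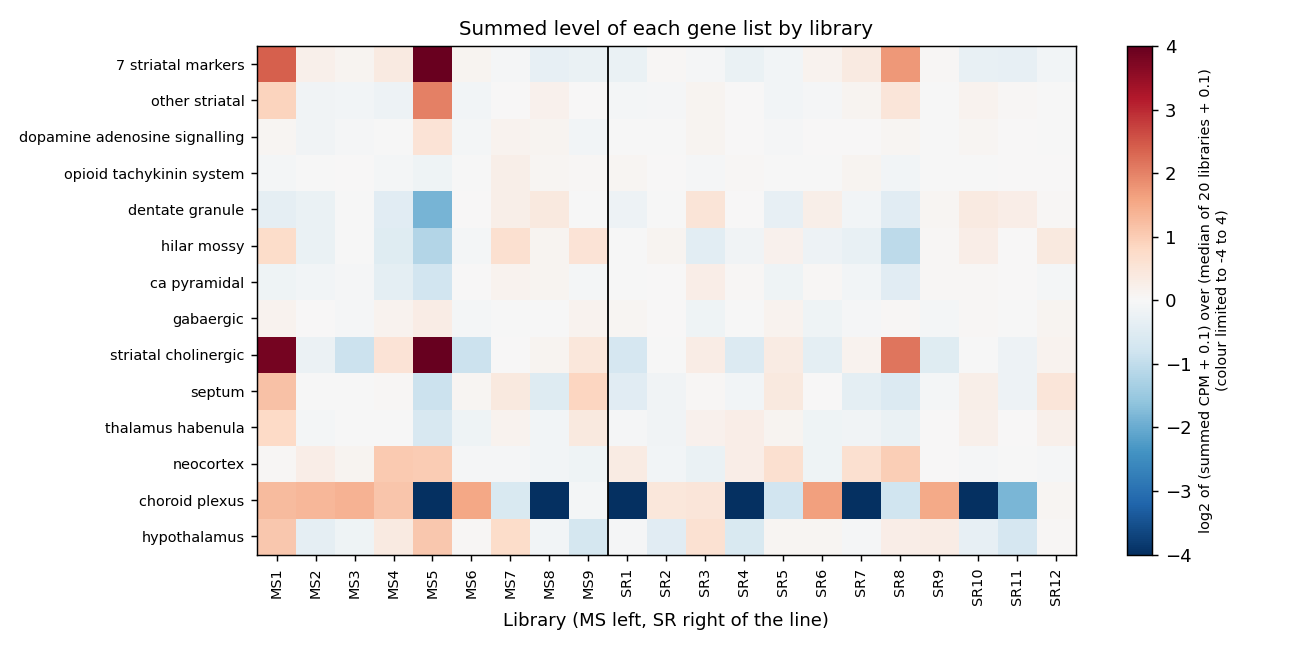
Summed level of each gene list in 21 libraries, as log2 of the ratio to the median of 20 libraries (colour limited to -4 to 4), with MS left and SR right of the line. The 7 markers, the further striatal genes and the cholinergic genes are high in MS5, MS1 and SR8, the dentate granule genes are lowest in MS5, and the choroid plexus genes vary in most other libraries.

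All 7 genes had counts in every library, so none was absent from the dissected samples. Whether hippocampal cells gave these counts was not tested. The lowest count in any of the 20 libraries other than MS5 was 28 for Adora2a, 37 for Drd2, 54 for Drd1, 61 for Tac1, 250 for Rgs9, 266 for Penk and 826 for Ppp1r1b. Per kilobase of exon the median over 20 libraries was 20.8 CPM for Ppp1r1b, 10.5 for Penk, 2.34 for Rgs9, 1.45 for Tac1, 1.15 for Drd2, 1.08 for Drd1 and 0.706 for Adora2a. The levels of Drd1 and Drd2 per kilobase lay closer together than the spread of either gene among libraries. The lowest library had 6.23% of the level in MS5 for Ppp1r1b, 5.24% for Tac1, 4.76% for Rgs9, 3.27% for Penk, 2.62% for Drd1, 1.92% for Drd2 and 1.11% for Adora2a.

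Without MS5, MS1, SR8 and SR7, the level of Rgs9 varied least among the 17 libraries, with a mean of 14.6 ± 1.61 CPM (SD) and a highest library 1.51 times the lowest. Penk had 17.2 ± 2.75 CPM and a ratio of 1.70, Tac1 4.82 ± 0.877 CPM and 2.13, and Adora2a 2.08 ± 0.462 CPM and 2.31. Ppp1r1b had 59.3 ± 14.5 CPM and 1.96, Drd1 3.84 ± 1.02 CPM and 2.64, and Drd2 2.96 ± 0.999 CPM and 3.29. Rgs9 and Penk thus had a steady low level over these libraries, while Drd2 and Drd1 varied most relative to their means.

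A base level that does not go with the striatal genes was also read from a line of each gene's CPM on the summed CPM of 5 genes that were high in MS5 (Gpr6, Syndig1l, Rgs9, Adora2a and Drd2, the gene itself left out), over 20 libraries. The sum was 10.7 CPM or more in every library when Rgs9 was left out and 22.03 CPM or more otherwise, and its genes may have a base level of their own. The intercept, the level at a sum of 0, is therefore extrapolated, and with a rising line it is lower than the line at any sum measured. It was 30.5 CPM for Ppp1r1b, 7.31 CPM for Rgs9 and 2.57 CPM for Tac1, which is 50.02%, 48.8% and 52.0% of each gene's median. It was 0.123 CPM for Drd1, 3.14% of the median, and below 0 for Penk (-0.830 CPM), Drd2 (-2.42 CPM) and Adora2a (-3.77 CPM). MS1 and SR8 set much of this. Without them the intercept was 9.90 CPM for Penk, 58.0% of the median, and 63.2 CPM for Ppp1r1b, above its median. It was 4.73 CPM for Rgs9, 31.8% of the median, 2.09 CPM for Tac1, 42.7% of the median, 0.441 CPM for Drd2, -2.98 CPM for Drd1 and -2.63 CPM for Adora2a. Ppp1r1b, Rgs9 and Tac1 had an intercept of 31.8% of their median or more both ways, Adora2a had none above 0 either way, and the sign for Penk, Drd1 and Drd2 depended on these 2 libraries.

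The co-variation of the 7 genes was much weaker without the libraries in which all were high. Over the 21 pairs of genes and 20 libraries, Pearson's r of log2 CPM was 0.73 to 0.95 (median 0.89) and the median of Spearman's rho was 0.43. Without MS1 and SR8, the 2 libraries farthest from the median, r was -0.27 to 0.65 (median 0.38, n = 18), and without SR7 as well it was -0.33 to 0.52 (median 0.13, n = 17). Within groups, the median r was 0.20 over 7 MS libraries (without MS5 and MS1) and 0.50 over 11 SR libraries (without SR8), with 7 and 10 of 21 pairs above 0.5. Over the 12 libraries of the lower range of animal numbers without MS5, MS1 and SR8 it was 0.58, with 13 pairs above 0.5 and the highest r of 0.90 for Adora2a with Rgs9. SR7 weighed heavily here. Without it the median was -0.04 over 10 SR libraries and 0.26 over 11 libraries of the lower range, with 1 and 4 pairs above 0.5. Whole nests were assigned to a group and the labels name no nest, so littermates may be among these mice. The points can therefore not be taken as independent, and no p-value is given. Over the 18 libraries the closest pairs were Drd1 with Adora2a (r = 0.65), Adora2a with Rgs9 (0.64) and Drd1 with Rgs9 (0.59), and their rho was 0.23, 0.15 and 0.28. Ppp1r1b with Drd2 was lowest (r = -0.27). Over 17 libraries only Drd1 with Ppp1r1b was above 0.5 (r = 0.52, rho = 0.50).

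The genes whose pattern was most like that of each marker included many striatal genes. By the 3 highest Pearson's r over 20 libraries for each marker, 11 different genes were named, 6 of them on the list of further striatal genes. Syndig1l, a synapse-associated membrane protein, was among the 3 for 6 markers, with r of 0.95 for Penk, Adora2a and Rgs9, 0.93 for Drd2, 0.92 for Drd1 and 0.90 for Tac1. Scn4b, a sodium channel subunit, was named for Penk (r = 0.96), Adora2a (0.95), Rgs9 (0.93) and Drd1 (0.92). Pde1b, a cyclic nucleotide phosphodiesterase, was named for Penk (0.95) and Adora2a (0.91), and Pde10a, the main striatal phosphodiesterase, for Rgs9 (0.92). Slc35d3 (0.92) was named for Drd2, Syt6 for Drd2 (0.92) and Tac1 (0.91), Adcy5, the main adenylyl cyclase of the striatum, for Tac1 (0.93), and Tbc1d8 for Drd1 (0.92). Without MS1 and SR8 these values were lower, for Syndig1l with Penk to 0.30 and for Pde1b with Adora2a to 0.42, while Scn4b with Penk stayed at 0.77 and Tbc1d8 with Drd1 at 0.78. Ppp1r1b shared none of these and was named with Pcp4l1 (0.92), Sh3rf2 (0.91) and Wdr27 (0.87), and these were 0.90, 0.82 and 0.78 without the 2 libraries.

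Among the libraries without a high level of the striatal genes, Ppp1r1b went with the genes of the choroid plexus, the epithelium in the ventricles that makes cerebrospinal fluid. In the 6 libraries with the lowest summed choroid plexus level other than MS5 (28.2 to 402 CPM), Ppp1r1b was 42.0 to 60.1 CPM, with the highest value in SR7. In the 6 with the highest level other than MS1 (3103 to 4460 CPM) it was 71.3 to 82.5 CPM, and the ranges did not overlap. Over 17 libraries r was 0.85 and rho 0.87, and within groups r was 0.83 over 7 MS and 0.68 over 11 SR libraries. The 11 SR libraries include SR7, which the 17 leave out, and over the 18 libraries with SR7 r was 0.75. Rgs9 did not rise with these genes (r = -0.34, rho = -0.31 over 17 libraries). DARPP-32 is known from choroid plexus epithelium as well as from striatal neurons. The part of choroid plexus in the level of Ppp1r1b was not tested, and MS5, with 13.5 CPM of choroid plexus genes, had the highest Ppp1r1b of all.

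**Figure D4:**
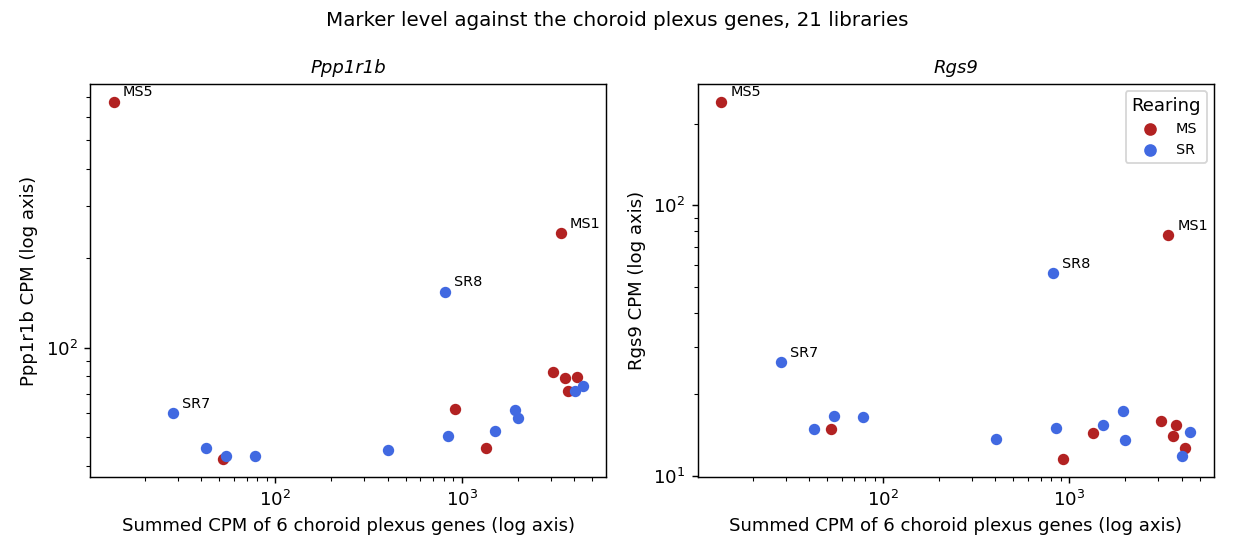
Level of Ppp1r1b (left) and Rgs9 (right) in CPM against the summed CPM of 6 choroid plexus genes in 21 libraries, both axes logarithmic, MS in red and SR in blue. Apart from MS5, MS1, SR8 and SR7, Ppp1r1b lies at 42.0 to 61.9 CPM where the choroid plexus genes are low to moderate and at 71.3 to 82.5 CPM where they are high, while Rgs9 shows no such rise.

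The remaining 17 libraries also differed in which hippocampal or neighbouring genes each marker went with. Tac1 and Drd1 were lower where the summed dentate granule genes were higher (r = -0.77 and -0.73, rho = -0.73 and -0.70) and higher where the neocortical genes were higher (r = 0.50 and 0.71, rho = 0.63 and 0.64). Drd2 went with the septal genes (r = 0.77, rho = 0.63), the GABAergic genes (0.73 and 0.76) and the hilar mossy cell genes (0.64 and 0.56). Penk was highest against the cholinergic genes (r = 0.66, rho = 0.68), and for Adora2a r lay between -0.39 and 0.38 over the lists. Drd1, Ppp1r1b and Tac1 were lower where the summed further striatal genes were higher (r = -0.77, -0.67 and -0.59), a sum made largely of genes that hippocampal neurons also express. Within groups not all of these were alike, but the SR libraries below include SR7, which the 17 leave out. With SR7 added to the 17, r with the further striatal genes was -0.35 for Drd1, -0.63 for Ppp1r1b and -0.39 for Tac1 (n = 18). Over 7 MS libraries (without MS5 and MS1) and 11 SR libraries (without SR8), r with the further striatal genes was -0.91 and 0.03 for Drd1, -0.92 and -0.13 for Ppp1r1b and -0.56 and -0.39 for Tac1. With the granule genes it was -0.74 and -0.81 for Tac1 and -0.95 and -0.48 for Drd1, and with the neocortical genes 0.62 and 0.61 for Tac1 and 0.79 and 0.72 for Drd1. Drd2 had 0.83 and 0.31 with the septal genes, 0.81 and 0.50 with the GABAergic genes and 0.58 and 0.33 with the hilar mossy genes. Penk had 0.59 and 0.72 with the cholinergic genes. The pooled values describe 17 libraries after 4 were left out for their marker levels, 8 lists were compared for each gene, and CPM of all genes share the library total.

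The study compared MS with SR to ask which hippocampal genes differ after early life stress, in mice aged 10 weeks, and none of the 7 markers passed the test. By edgeR's quasi-likelihood test over 8 MS and 12 SR libraries, without MS5, 0 of 7 were called at an adjusted p of 0.05, with 0.0110% of 18146 genes called in all, and 0 of 7 had an unadjusted p under 0.05, where 11.5% of all genes did. DESeq2 called 0 of 7 and 0.904% of 14056 genes. The log2 fold changes of MS against SR were 0.46 for Penk, 0.27 for Tac1, 0.36 for Drd1, 0.64 for Drd2, 0.65 for Adora2a, 0.48 for Ppp1r1b and 0.20 for Rgs9, with a median of 0.46, where the median over all genes was 0.00084. The standard errors were 0.31 to 0.71, and the adjusted p-values of edgeR 0.579 (Ppp1r1b) to 0.897 (Rgs9). With this spread the lack of a call does not show that a difference is absent. Over all 21 libraries even a log2 fold change of 2.28 for Adora2a (standard error 0.86) was not called.

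The direction of these values depended on single libraries for 6 of the 7 genes, while Ppp1r1b stayed above 0 with each library left out in turn. In CPM, Penk was 31.6 ± 40.4 (SD, n = 8) in MS and 23.0 ± 18.7 (n = 12) in SR, Ppp1r1b 88.1 ± 64.4 and 63.4 ± 30.5, and Adora2a 6.32 ± 11.8 and 3.99 ± 5.53. The SD of the MS group exceeded its mean for Penk, Drd1, Drd2, Adora2a and Rgs9, and not for Ppp1r1b and Tac1. Without MS1 the log2 fold change was negative for 6 of 7 genes, from -0.89 for Adora2a to -0.19 for Tac1, and 0.06 for Ppp1r1b. Without MS1 and SR8 it was between -0.17 and -0.01 for 6 genes and 0.26 for Ppp1r1b. With the summed choroid plexus level as a term the value of Ppp1r1b was 0.22 (adjusted p = 0.925 by edgeR). With all 21 libraries, MS5 included, the values rose to 1.12 (Tac1) to 2.28 (Adora2a), with adjusted p-values of edgeR of 0.286 to 0.382, and again 0 of 7 were called, where 0.00553% of 18077 genes were. At an unadjusted p under 0.05 there were 7 of 7, where 11.7% of all genes were, and 3 of 7 without MS5 and SR8, where 12.2% were. MS5 is the library on which the genes were chosen, so these values support nothing about rearing.

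**Figure D5:**
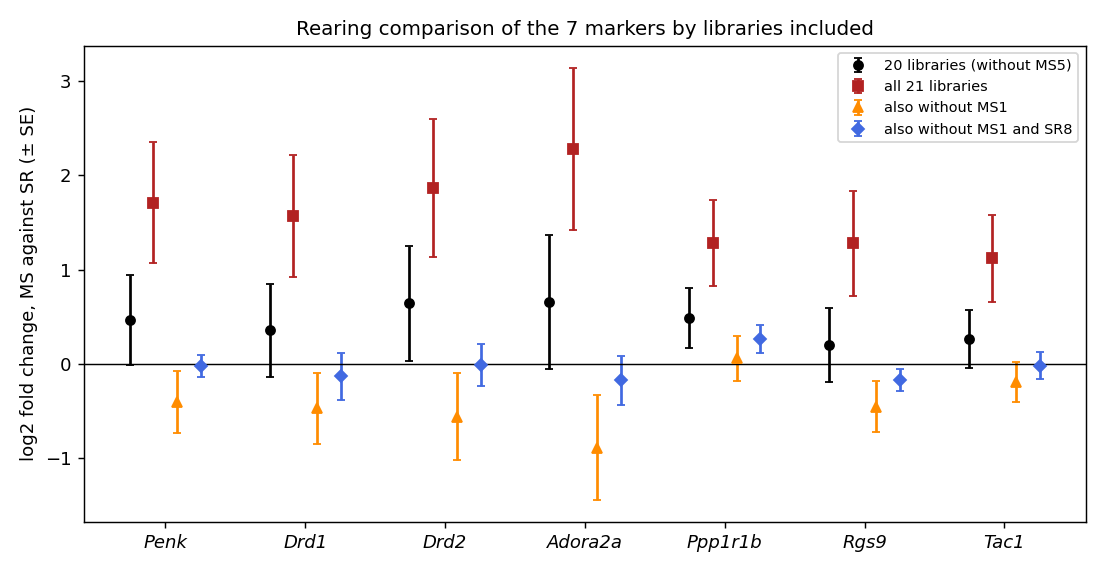
Log2 fold change of MS against SR for each gene, with its standard error, over 20 libraries without MS5 (black), over all 21 (red), without MS5 and MS1 (orange) and without MS5, MS1 and SR8 (blue). The values with MS5 are 1.12 to 2.28, those without MS1 are below 0 for 6 of 7 genes, and those without MS1 and SR8 lie between -0.17 and 0.26.

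The rest of the dopamine, adenosine, opioid and tachykinin systems gave no call between MS and SR either. Of 28 genes of dopamine and adenosine signalling 25 were tested, 0 were called in either direction by edgeR and the median log2 fold change was 0.02. In MS5, 10 of 27 detected genes of this list were at least 2-fold above the median of 20 libraries, where 3.79% of all genes were, and 2 at least 2-fold below it, where 4.66% were. Of the 10, 6 (Drd3, Gnal, Gng7, Adcy5, Pde1b and Pde10a) are also on the list of further striatal genes. A gene counted as detected with at least 10 counts in any of the 21 libraries, MS5 included. The shares of all genes are over the 18146 tested, which were filtered without MS5. Drd3 was detected only through MS5, with 23 counts there, so the count of 10 is a description. Drd3, the D3 receptor, had 0.762 CPM in MS5 and a median of 0.0633 CPM, Pde10a had 525 and 85.7 CPM, and Adcy5 744 and 161 CPM. Of 15 opioid and tachykinin genes 13 were tested, 0 were called and the median was 0.04. The receptors Tacr1 (13.6 CPM in MS5, median 1.23) and Oprk1 (11.0 and 1.05), for substance P and dynorphin, and the dynorphin precursor Pdyn (40.8 and 12.1) had the highest ratios of this list. No gene was called in the other lists: the median log2 fold change was 0.16 over 22 further striatal genes, -0.10 over 10 dentate granule genes, -0.04 over 11 CA pyramidal genes, 0.10 over 4 hilar mossy genes, 0.08 over 12 GABAergic genes and -0.05 over 6 neocortical genes. It was 0.91 over 6 choroid plexus genes, 0.48 over 6 septal genes and 0.13 over 6 genes of thalamus and habenula. Of the cholinergic and the hypothalamic list 1 gene each passed the filter on low counts.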

How the data were processed

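The authors sequenced poly-A RNA (stranded kit, NovaSeq6000), aligned reads to GRCm38 with STAR 2.7.3a and ran featureCounts against the Ensembl annotation; whether counting used the strand is not given in the sources used here. They deposited 1 table of raw counts of 21 libraries, not normalized or filtered, with 0 columns of no sample. Groups are those of the labels. The members and the gene lists were chosen with earlier results of these data known.

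Counts were normalized by TMM and tested with edgeR 4.0.16 (R 4.3.3; quasi-likelihood, robust, filterByExpr with a minimum count of 10, two-sided, Benjamini-Hochberg adjustment over all genes, threshold 0.05). Symbols, positions and exon lengths are those of GENCODE M21. CPM used TMM totals of all 21 libraries, and log2 CPM a prior count of 2. Counting error adds to the spread of genes of few counts. The study removed 1 outlier that it does not name; MS5, farthest on the first component of DESeq2 1.42.0's variance-stabilised counts, was left out here. Genes named are the 7 markers, the 3 genes of each list with the highest ratio of MS5 to the median of 20 libraries (the lowest for hippocampal neurons), and the 3 genes most correlated with each marker. Bcl11b, Lamp5, Fezf2, Gnal, Gng7 and the genes in Other observations were named after their values were seen. Scripts were tested on simulated data. Alternatives were DESeq2, its size factors, no filter, all libraries, animal-number range and sets (limma 3.58.1), and each library left out in turn. 2 list genes without a matching symbol were not used. 2 further list items are not reported here, and the lists, the term and the base-level line were recomputed without them after the first results had been seen.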

Additional observations from a re-analysis of the deposited data

Results flagged for a closer look

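All 7 markers had a single MS library far from the others. The gap from the highest library to the next is given as a share of the range of the group. The genes were chosen for this pattern, so the values are a description with no test. Over 9 MS libraries the gap was between MS5 and MS1, with ratios of 0.710 for Penk, 0.697 for Drd1, 0.628 for Drd2, 0.721 for Adora2a, 0.682 for Ppp1r1b, 0.713 for Rgs9 and 0.688 for Tac1. Over the 8 MS libraries without MS5 the gap was between MS1 and the next library, with 0.918 for Penk, 0.854 for Drd1, 0.892 for Drd2, 0.948 for Adora2a, 0.798 for Ppp1r1b, 0.934 for Rgs9 and 0.855 for Tac1. The genes share their libraries, so these are not 14 separate observations. The difference of the MS effect between the lower and the higher range of animal numbers passed edgeR's interaction test for 0 markers (adjusted p 0.695 to 0.923).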

How the results depend on the processing

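No paired analysis was possible because the labels give the groups no shared replicate numbers. No marker was called under any of 33 alternatives (lowest adjusted p 0.286). Of their log2 fold changes 203 kept their direction and 28 reversed. Left out in turn, each library gave -0.41 to 0.85 for Penk, -0.47 to 0.69 for Drd1, -0.56 to 1.19 for Drd2, -0.89 to 1.37 for Adora2a, 0.06 to 0.69 for Ppp1r1b, -0.45 to 0.47 for Rgs9 and -0.19 to 0.44 for Tac1, each lowest without MS1. DESeq2 gave -0.0207 for Penk, -0.46 for Drd1, -0.0120 for Drd2, -0.16 for Adora2a, -0.44 for Rgs9 and -0.18 for Tac1, after it replaced the counts of MS1, and of SR8 for Penk, Drd2 and Adora2a. The higher range of animal numbers alone gave -0.43 for Drd1, -0.15 for Ppp1r1b, -0.0885 for Rgs9 and -0.16 for Tac1, and the set as a random block -0.0373 for Rgs9.

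Alternatives chosen after seeing the data were these. Without MS1 and SR8 the values were -0.0219 for Penk, -0.13 for Drd1, -0.0122 for Drd2, -0.17 for Adora2a, -0.17 for Rgs9 and -0.0181 for Tac1. Without MS4 and SR7 as well they were -0.0484 for Penk, -0.0608 for Drd1, -0.0148 for Adora2a and -0.11 for Rgs9. With the summed level of Gpr6, Syndig1l and Scn4b as a term the value was -0.0474 for Rgs9. The median r of marker pairs, 0.89, was 0.97 on CPM, 0.38 without MS1 and SR8 and 0.13 without SR7 too. Without MS1 and SR8 the intercept was 9.90 CPM for Penk, -2.98 for Drd1, 0.441 for Drd2, -2.63 for Adora2a, 63.2 for Ppp1r1b and 4.73 for Rgs9, and with all 21 libraries -1.09 for Drd2 and -4.58 for Adora2a. Genes called in all numbered 2, and 0 to 109 with each library left out (109 without MS8 and without MS9), 127 by DESeq2, 230 in the lower range alone and 0 with counts summed by set. The cause was not tested.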

Other observations

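MS1 differed from MS5 and SR8 in genes of other regions, given here as values. The 6 septal genes summed to 218 CPM in MS1, 53.5 CPM in MS5, 65.6 CPM in SR8 and 68.0 to 176 CPM in the other 18 libraries. Zic1, a transcription factor of the septum, had 104 CPM in MS1 against 20.98 CPM in MS5 and 14.6 CPM in SR8. In MS1, 3 of the 6 septal genes (Zic1, Zic2 and Zic4) were at least 2-fold above the median of 20 libraries. Over all genes 2.11% were that high. Crhr2 was 1.63 times the median, and Trpc4 (40.4 CPM) and Prph (2.54 CPM) were near their medians of 42.0 and 2.26 CPM. The septal list was therefore not raised as a whole. The 6 genes of thalamus and habenula summed to 164 CPM in MS1, 60.3 CPM in MS5, 77.5 CPM in SR8 and 82.7 to 122 CPM in the rest, with 22.5 CPM of Tcf7l2 in MS1 against a median of 5.95 CPM. The 7 hypothalamic genes summed to 3.92 CPM in MS1, 3.98 CPM in MS5, 2.19 CPM in SR8 and 1.08 to 3.07 CPM in the rest. Isl1 and Six3, transcription factors of developing striatal and other forebrain neurons, were as high or nearly as high in MS1 as in MS5, with 5.02 and 4.91 CPM of Isl1 and 18.3 and 20.8 CPM of Six3, and SR8 had 0.505 and 3.53 CPM.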
